A study of Mus musculus with 12 samples.

Results

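The endoplasmic reticulum (ER) selenoproteins were followed in mouse liver as 7 genes, Selenos, Selenok, Selenof, Selenom, Selenot, Selenon and Selenoi, chosen by name from the 57010 genes of the deposited expression table. The study gave mice Aspergillus oryzae A02, a filamentous food fungus, that had been enriched with selenium, and asked how this affected growth and liver metabolism. The 6 selenium libraries came from livers of wild-type male C57BL/6J mice that received the enriched fungus by gavage every day, at 0.5 mg selenium per kg, dissolved in saline. The 6 control libraries came from wild-type male C57BL/6J mice listed as untreated, and the labels do not say whether they were gavaged with saline. All mice were 6 weeks old at the start, were acclimatized for 7 days and ate a normal diet. The protocol gives 10 mice per group. The design text gives 8 weeks of feeding and the sample descriptions 14 weeks, without saying whether the longer time is an age. Fungus and selenium reached the mice as 1 preparation, so what each did cannot be told apart.

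Selenoproteins carry selenocysteine, an amino acid that resembles cysteine with selenium in place of sulfur. It is inserted at a UGA codon that would otherwise stop translation, with the help of a stem-loop in the 3′ untranslated region, a binding protein and a dedicated elongation factor. The ER members lie in the lumen or the membrane of the organelle in which liver cells fold the plasma proteins they secrete. They are known for work in the removal of misfolded proteins, in oxidative folding, in calcium handling and in phospholipid synthesis.

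The place of the UGA codon differs among the members, and it is shown here because it separates the membrane adaptors from the enzymes with a thioredoxin-like fold. The sequences are coding stretches of GENCODE release M21 transcripts, with 5 codons before the selenocysteine codon, written TGA and in capitals.

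Selenos: ccatcatctggcggcTGAaactaa

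Selenok: ccaatggctggtggaTGAggaaggtaa

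Selenof: cttgaagtctgcggaTGAaaattggggagg

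Selenom: gagacctgtggaggaTGAcagttgaatcgc

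Selenot: cagatttgtgtatccTGAgggtaccggcgg

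Selenon: gacgaccagtcctgcTGAggttccgggcgg

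Selenoi: aaaccaaactcagatTGActaggaatggaa

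In Selenos, on chromosome 7, the TGA is codon 189 of 190, with 1 codon before the stop. In Selenok, on chromosome 14, it is codon 92 of 94, with 2 codons before the stop, so both printed stretches end in the stop codon taa. Selenom, on chromosome 11, has it at codon 48 of 145, and Selenot, on chromosome 3, at codon 49 of 195. Both of these carry a cysteine codon (tgt) 3 codons upstream of the TGA, the spacing of a thioredoxin-type redox motif. Selenof, also on chromosome 3, has its TGA at codon 93 of 162, with a cysteine codon (tgc) 2 codons upstream. Selenon, on chromosome 4, has it at codon 428 of 557, directly after a cysteine codon. Selenoi, on chromosome 5, has it at codon 388 of 398, with no cysteine codon among the 5 before it.

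Each library was deposited as TPM, a length-corrected transcript abundance whose total is equal in all libraries, so the depth behind a value is unknown. Of the 57010 genes, 9980 reached 1 TPM in at least 6 of the 12 libraries and were tested, and 6 of the 7 members were among them. Selenon was below that limit. The libraries correlated pairwise at r = 0.935 to 0.986 on the log2 scale. Hepatocyte markers summed to 30482 to 45615 TPM in selenium libraries and to 29857 to 50604 TPM in controls, led by albumin, and none of their 6 genes was at 0 in all libraries, so the label of liver held. Markers of other cells were present too, so the further label of hepatocyte is read here as whole liver. Dbp, a gene of the circadian output, was above 10 TPM in selenium libraries 1 and 5 and in controls 5 and 6 and below it in the other 8, and the labels give no time of day.

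No member passed the test between selenium and control livers. With limma's empirical Bayes test on log2(TPM + 1) and Benjamini-Hochberg adjustment over all 9980 genes, 0 of the 6 tested members had an adjusted p under 0.05, against 0.331% of all tested genes (33 genes). At an unadjusted p under 0.05, 2 of the 6 were found, Selenos with higher and Selenom with lower mean values in selenium livers, against 18.5% of all tested genes (7.01% higher and 11.4% lower in selenium livers). The log2 differences, selenium minus control, were positive for 2 members and negative for 4, with a median of −0.09, beside −0.03 for all tested genes. No member had groups that did not overlap, whereas 1.63% of all tested genes did. In whole liver, fewer cells of a type and less RNA per cell cannot be told apart.

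In treated and control livers alike, Selenof was the most abundant member and Selenon the least, on the TPM scale, which is per transcript length. Mean levels over the 12 libraries were 113 TPM for Selenof, 71.6 for Selenok, 37.7 for Selenos, 37.2 for Selenot, 6.28 for Selenoi, 2.40 for Selenom and 0.508 for Selenon. Selenof stood above Selenok in 12 of 12 libraries, and Selenok above Selenos in 11 of 12. Selenos and Selenot were not ordered beyond their spread, since Selenos was higher in 5 of 12. Selenot stood above Selenoi, Selenoi above Selenom and Selenom above Selenon in 12 of 12 libraries each. Summed over the 7 members, the level was 255 ± 22.1 TPM in selenium livers and 283 ± 43.4 TPM in control livers (SD, n = 6 each), with ranges of 233 to 288 and 245 to 353 TPM that overlap. Selenof made up 42.1% of this sum, and Selenof and Selenok together 68.7%.

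**Figure D1:**
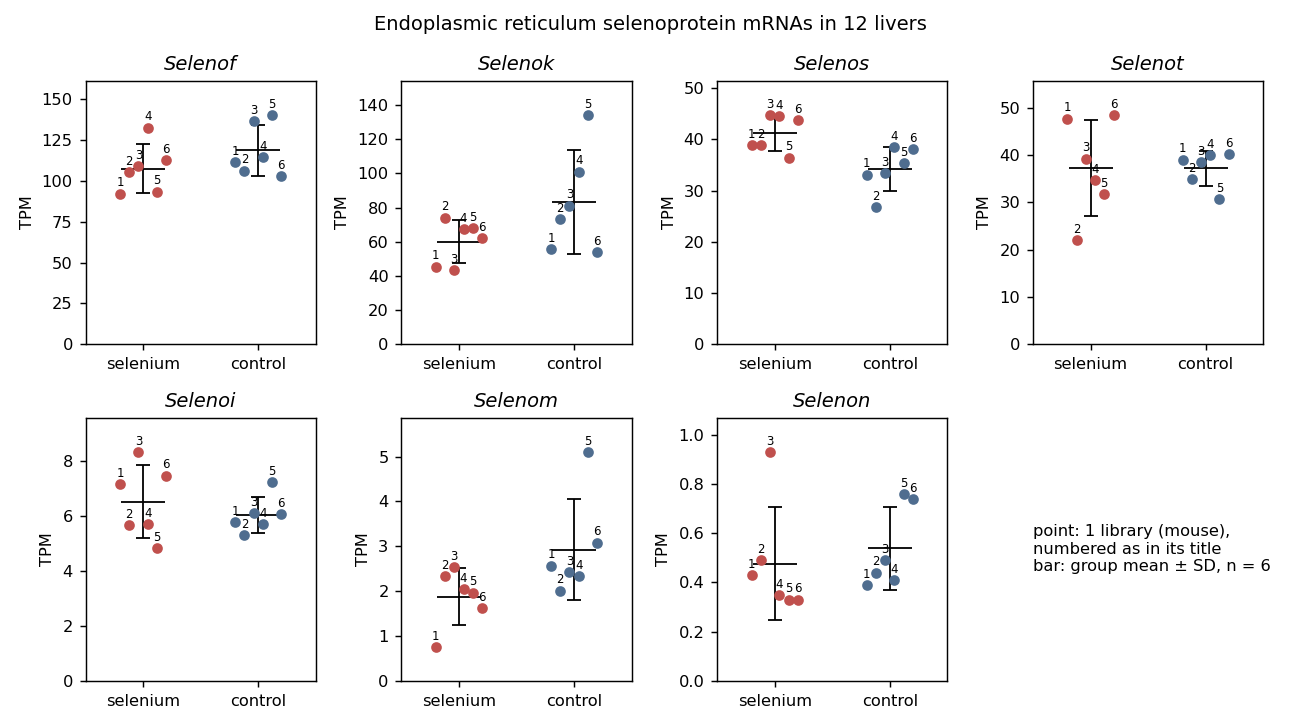
TPM of each ER selenoprotein gene (vertical axes from 0, one panel per gene) in 6 selenium livers (left of each panel) and 6 control livers (right). Points are single libraries with their replicate numbers, and bars give the mean and SD. The groups overlap in every panel, the control livers spread widest for Selenok, at 53.9 to 134 TPM, and single livers stand apart for Selenom (control 5, 5.10 TPM) and Selenon (selenium 3, 0.93 TPM).

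Selenos and Selenok are the members tied to ER-associated degradation (ERAD), the export of misfolded proteins to the cytosol. Selenos (also known as VIMP) is a membrane protein that binds the ATPase p97, encoded by Vcp, and the derlins. It was measured at 36.4 TPM at the lowest, 41.3 at the median and 44.7 at the highest in selenium livers, against 26.8, 34.4 and 38.4 TPM in control livers. In 5 of 6 selenium livers Selenos was above the highest control, and selenium liver 5 lay within the control range. Among all tested genes, 1.82% had 5 or 6 selenium libraries above every control. Selenos averaged 41.2 ± 3.56 TPM in selenium livers and 34.2 ± 4.26 TPM in control livers (SD, n = 6 each). The log2 difference was 0.27 (SE 0.11, 95% interval 0.03 to 0.50). Its p was 0.0296 unadjusted and 0.220 adjusted by limma. By a two-sided exact permutation test p was 0.0108 unadjusted and 0.186 adjusted.

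The authors' deposited table gives Selenos a log2 difference of 0.36, after its sign was turned to selenium over control, with p = 0.000137 and adjusted p = 0.00673. Selenos was the only member whose adjusted p in the authors' deposited table was under 0.05, and 9.87% of the tested genes had one, 6.97% with the higher value in selenium livers. Over all tested genes, the log2 values of the authors' deposited table were higher than the log2 ratios of the mean TPM by a median of 0.067. The Selenos difference was 0.17 (adjusted p = 0.366 by limma) after TPM was rescaled without mitochondrial genes, which took 8.10% to 13.8% of TPM in selenium livers and 13.3% to 22.8% in controls. The median difference of all tested genes was −0.11 after that rescaling and −0.03 before it. With median-of-ratios scaling the Selenos difference was 0.29 (adjusted p = 0.103 by limma). In the 8 low-Dbp libraries the Selenos difference was 0.38, in the 4 high-Dbp libraries 0.03. With the first 2 principal components of clock genes as covariates it was 0.10 (adjusted p = 0.778 by limma).

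Selenok, a small membrane protein that binds p97 and derlins and serves as a cofactor of the palmitoyltransferase encoded by Zdhhc6, was the most variable of the abundant members among control livers, with a coefficient of variation of 36.6%. Its TPM was 43.3 TPM at the lowest, 64.8 at the median and 74.1 at the highest in selenium livers, against 53.9, 77.1 and 134 TPM in control livers. Selenium livers 1 and 3 were below every control, and controls 3, 4 and 5 were above every selenium liver, while the other 7 livers overlapped. Selenok averaged 60.0 ± 12.7 TPM in selenium livers and 83.2 ± 30.4 TPM in control livers (SD, n = 6 each). The log2 difference was −0.42 (SE 0.22, 95% interval −0.89 to 0.05), with an adjusted p of 0.329 by limma. The table also lists 6 Selenok pseudogenes, of which the highest reached 1.21 TPM, and whether reads were shared between these copies was not measured. Without control 5 the Selenok difference was −0.27 (adjusted p = 0.582). The authors' deposited table gives −0.28 with an adjusted p of 0.471.

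Because their values lean in opposite directions, the ratio of Selenok to Selenos was lower in most selenium livers. It was 0.969 at the lowest, 1.47 at the median and 1.91 at the highest in selenium livers, against 1.42, 2.53 and 3.78 in control livers. The groups overlapped, since controls 1 and 6 lay within the range of the selenium livers. The ratio was formed after both genes' values had been seen, and no test was run on it.

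Selenof and Selenom share a thioredoxin-like fold and lie in the ER lumen. Selenof (formerly Sep15) binds UDP-glucose:glycoprotein glucosyltransferase, the enzyme that checks whether glycoproteins have folded, encoded by Uggt1. Its TPM was 92.3 TPM at the lowest, 107 at the median and 133 at the highest in selenium livers, against 103, 113 and 140 TPM in control livers. The groups overlapped, with selenium livers 1 and 5 below every control and controls 3 and 5 above every selenium liver. The log2 difference was −0.14 (SE 0.12, 95% interval −0.40 to 0.12), with an adjusted p of 0.573 by limma. It was −0.09 without control 5, −0.03 in the 8 low-Dbp libraries and −0.37 in the 4 high-Dbp libraries. The highest library of Selenof was 1.52 times its lowest, the smallest such ratio among the members. Its coefficient of variation was 13.8% in selenium livers, where only Selenos had a lower one. In control livers it was 13.3%, and Selenos, Selenot and Selenoi had lower ones.

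Selenom, which is known from brain for roles in calcium and in leptin signalling, was at the low end of what was tested, with 22.5% of the tested genes below it in mean TPM. Values of Selenom were 0.76 TPM at the lowest, 2.00 at the median and 2.54 at the highest in selenium livers, against 2.01, 2.50 and 5.10 TPM in control livers. Selenium livers 1, 5 and 6 were below every control, selenium liver 1 by the widest margin, and control 5 stood above every other library. Its highest library was 6.71 times its lowest. The mean was 1.88 ± 0.632 TPM in selenium livers and 2.92 ± 1.12 TPM in control livers (SD, n = 6 each). The log2 difference was −0.44 (SE 0.19, 95% interval −0.85 to −0.03). Its p was 0.0385 unadjusted and 0.243 adjusted by limma. By a two-sided exact permutation test p was 0.0433 unadjusted and 0.270 adjusted. The log2 difference understates the change in TPM because of the added 1.

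The Selenom difference moved with single libraries and with Dbp. It was −0.30 without selenium liver 1 and −0.30 without control 5 (adjusted p = 0.391 and 0.454 by limma). In the 8 low-Dbp libraries the difference was −0.09, in the 4 high-Dbp libraries −1.13. With clock components as covariates it was larger than as reported and not smaller. It was −0.45 with the first principal component of clock genes and −0.77 with the first 2 (adjusted p = 0.24 and 0.25 by limma). The high-Dbp libraries are selenium livers 1 and 5 and controls 5 and 6, so they include both of these single livers. Dependence on Dbp and on these livers therefore cannot be told apart. Control 5 also held 8.40 TPM of Col1a1, 17.9 TPM of Col3a1 and 266 TPM of Spp1, genes of collagen-producing cells and of bile ducts, chosen after their values were seen. Summed markers of stellate cells and fibroblasts (7 genes found, 3 tested) ranged from 18.5 to 72.9 TPM in selenium livers and from 47.2 to 66.1 TPM in control livers, and none was at 0 in all libraries. That sum was 57.2 TPM in control 5, inside the control range, and cholangiocyte markers other than Spp1 summed to 3.72 TPM there, against 2.21 to 6.77 TPM over all controls. The part of these cells in the level of Selenom was not tested.

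Selenot, an ER membrane protein with a thioredoxin-like fold whose loss in mice is lethal before birth, had nearly equal means and a wider spread in selenium livers, a difference in spread that was not tested. Values of Selenot were 22.0 TPM at the lowest, 37.0 at the median and 48.4 at the highest in selenium livers, against 30.6, 38.7 and 40.1 TPM in control livers. The control values lay inside the range of the selenium values, with selenium liver 2 below all of them and selenium livers 1 and 6 above. The means were 37.3 ± 10.1 TPM in selenium livers and 37.2 ± 3.75 TPM in control livers (SD, n = 6 each). The log2 difference was −0.04 (95% interval −0.40 to 0.33), with an adjusted p of 0.935 by limma and differences inside that interval are not resolved. Its sign turned in some alternatives, to 0.08 with array weights and to 0.10 without selenium liver 2, and the authors' deposited table gives 0.07 with an adjusted p of 0.854.

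Selenon, a calcium-sensing reductase of the ER membrane that is tied in humans to congenital muscle disease, was close to the lower end of what the table resolves. It was measured at 0.33 TPM at the lowest, 0.39 at the median and 0.93 at the highest in selenium livers, against 0.39, 0.465 and 0.76 TPM in control livers. Selenium liver 3 stood above all other libraries, and selenium livers 4, 5 and 6 were below every control. Without a filter on low values, its log2 difference was −0.07 (95% interval −0.30 to 0.17, adjusted p = 0.776 by limma). Selenium liver 3 also held 8.17 TPM of Col1a1, 21.8 TPM of Col3a1 and 129 TPM of Spp1, the highest values of these genes among the selenium livers. Skeletal muscle markers (4 genes found, 0 tested) reached a sum of 145 TPM in selenium liver 4 and at most 0.25 TPM in controls, and Selenon there was 0.35 TPM. The part of other cells in the level of Selenon was not tested.

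Selenoi (also EPT1) is the ethanolamine phosphotransferase that makes phosphatidylethanolamine in the last step of the Kennedy pathway. Values of Selenoi were 4.82 TPM at the lowest, 6.43 at the median and 8.33 at the highest in selenium livers, against 5.30, 5.92 and 7.23 TPM in control livers. Selenium livers 1, 3 and 6 were above the other selenium livers, and the groups overlapped. The log2 difference was 0.08 (SE 0.13, 95% interval −0.19 to 0.36), with an adjusted p of 0.768 by limma, and the authors' deposited table gives 0.20 with an adjusted p of 0.243. It was 0.02 without selenium liver 3 and 0.15 without selenium liver 5, and 0.20 in the 8 low-Dbp against −0.14 in the 4 high-Dbp libraries. Selenoi overlaps the processed pseudogene Gm16288 on the opposite strand, which reached at most 0.32 TPM, and nothing used here says whether reads were counted by strand.

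**Figure D2:**
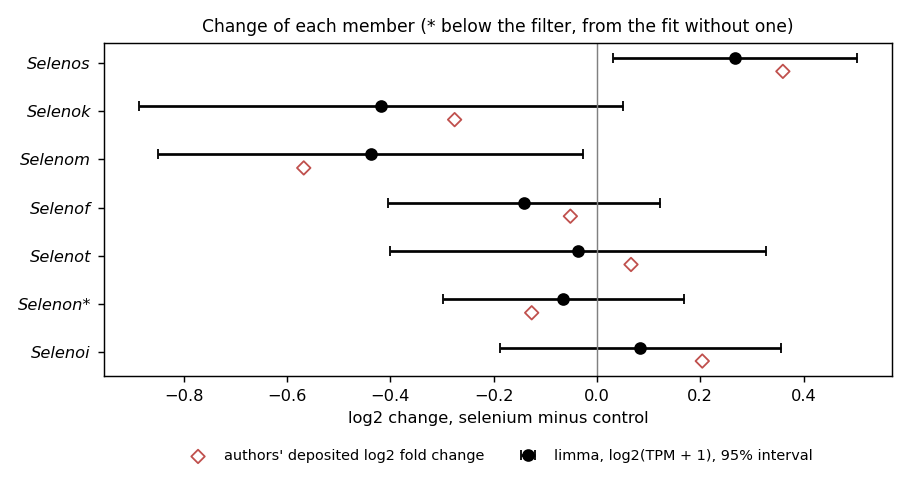
Log2 difference of each ER selenoprotein, selenium minus control (horizontal axis), by limma on log2(TPM + 1) with its 95% interval (filled points and bars) and in the authors' deposited table with its sign turned (open diamonds). The intervals of Selenos and Selenom leave out 0, at 0.03 to 0.50 and −0.85 to −0.03, before adjustment over all genes, and the other intervals include it.

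Within groups, Selenok and Selenot varied with the balance of long against short transcripts in a library. This balance was taken as the median log2 deviation of transcripts from 3632 bases minus that of transcripts up to 2009 bases. From the lowest balance to the highest, −0.27 to 0.30, the selenium livers 2, 4, 5, 6, 1 and 3 had 74.1, 67.5, 67.8, 62.1, 45.4 and 43.3 TPM of Selenok (1678 bases). From −0.17 to 0.11, the control livers 5, 3, 4, 2, 1 and 6 had 134, 81.2, 101, 73.1, 55.6 and 53.9 TPM. In both groups Selenok was lower where the balance was higher, apart from a single pair of neighbours in each. In the same orders, Selenot (3157 bases) was at 22.0, 34.7, 31.7, 48.4, 47.7 and 39.3 TPM in the selenium livers and at 30.6, 38.4, 40.0, 34.8, 39.0 and 40.1 TPM in the control livers. In both groups Selenot was lowest at the lowest balance, and its highest value, in selenium liver 6, came at a balance of 0.11. The pattern was not particular to Selenok and Selenot. Selenof had r = −0.949 with the balance among control livers and −0.322 among selenium livers. Selenoi had r = 0.821 among selenium livers and −0.6 among control livers. For Selenos (1191 bases) r was 0.261 among selenium livers and 0.0511 among control livers. These orders and r values were seen in the data and no test was run on them.

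**Figure D3:**
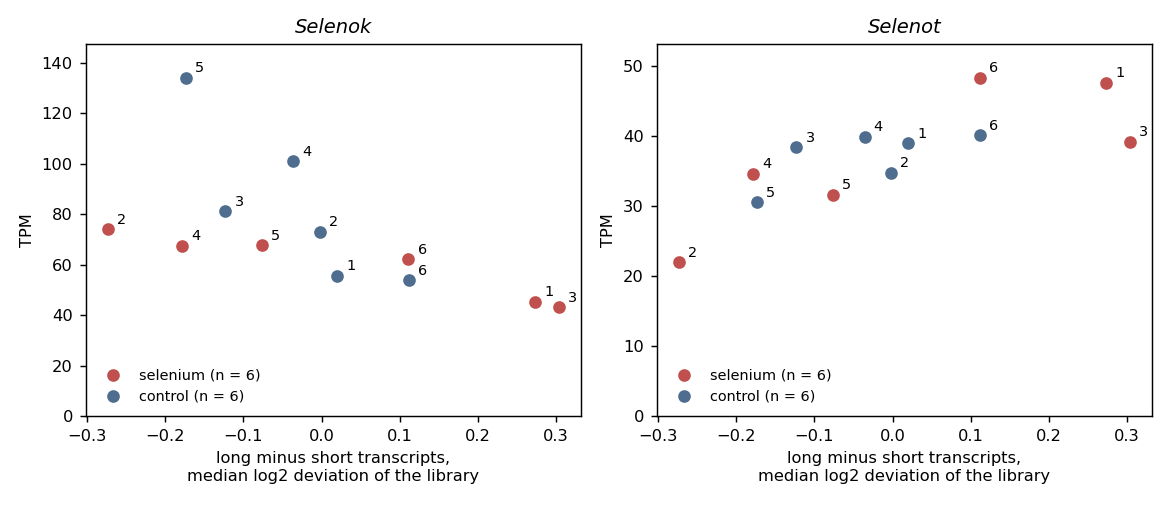
TPM of Selenok (left panel) and Selenot (right panel) against the balance of long over short transcripts in each library (horizontal axis, log2), for 6 selenium and 6 control livers. Selenok is lowest in selenium livers 1 and 3, where the balance is highest, and Selenot is lowest in selenium liver 2, where the balance is lowest.

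Each library was also corrected by loess for transcript length, an alternative chosen after seeing the data, with mixed effects on the spread. The SD of log2(TPM + 1) among selenium livers was 0.093 after correction against 0.192 before it for Selenof, and 0.0927 against 0.258 for Selenoi. It was 0.299 against 0.321 for Selenok, 0.397 against 0.413 for Selenot and 0.288 against 0.363 for Selenom, and larger after correction for Selenos, 0.153 against 0.123. Among control livers it was smaller after correction for every tested member except Selenoi, at 0.17 against 0.13. The Selenos difference was 0.33 (adjusted p = 0.0869 by limma) after the correction, the largest of the 6 tested members in the positive direction, and 0 members passed.

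ERAD partners of Selenos and Selenok had higher mean values in selenium livers more often than lower ones, but none passed the test. Of 26 ERAD genes, all tested, 19 had positive and 7 negative differences, with a median of 0.10 beside −0.03 for all tested genes, and 6 were higher and 0 lower at an unadjusted p under 0.05, where all tested genes gave 7.01% higher and 11.4% lower. Derl3, the inducible derlin, averaged 2.52 ± 0.773 TPM in selenium livers and 1.01 ± 0.490 TPM in control livers (SD, n = 6 each), a log2 difference of 0.81 with adjusted p = 0.0637 by limma. Vcp averaged 90.7 ± 13.8 TPM in selenium livers and 66.6 ± 13.9 TPM in control livers, a difference of 0.45 (adjusted p = 0.170). Syvn1, the ubiquitin ligase of the main ERAD complex, differed by 0.77 (adjusted p = 0.138) and its partner Sel1l by 0.36 (adjusted p = 0.305). Nploc4, a cofactor of p97, differed by 0.63 (adjusted p = 0.129), whereas Derl1 and Derl2 differed by 0.16 and 0.09 (adjusted p = 0.500 and 0.711). The median of the ERAD list was 0.01 after rescaling without mitochondrial genes, when that of all genes was −0.11.

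The 13 ER luminal chaperones and folding factors were the list with the highest median, 0.57, and all 13 differences were positive. None passed the adjusted threshold, and 9 were higher and 0 lower at an unadjusted p under 0.05, beside 7.01% and 11.4% of all tested genes. Hspa5, the major ER chaperone BiP, averaged 322 ± 52.4 TPM in selenium livers and 204 ± 71.1 TPM in control livers (SD, n = 6 each), a log2 difference of 0.70 with adjusted p = 0.114 by limma. Hyou1, a nucleotide exchange factor for BiP, differed by 1.24 (adjusted p = 0.0762), and the co-chaperones Dnajb9 and Dnajb11 differed by 0.85 and 0.52 (adjusted p = 0.0721 and 0.0927). Among 13 sensors and factors of the unfolded protein response, 9 differences were positive and 4 negative (median 0.14). Of these, 2 were higher and 0 lower at an unadjusted p under 0.05, beside the same 7.01% and 11.4% of all tested genes. Xbp1, its spliced transcription factor, averaged 62.5 ± 14.1 TPM in selenium livers and 41.1 ± 8.05 TPM in control livers (log2 difference 0.59, adjusted p = 0.10). All 6 selenium livers were above every control for Xbp1, and 1.63% of all tested genes had groups that did not overlap, in either direction. Atf6b and Mbtps1, the protease that activates ATF6, differed by 0.28 and 0.25 (adjusted p = 0.264 and 0.281).

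Selenos was the only member whose level correlated with that of the chaperones over all 12 livers at an adjusted p under 0.05. Both had higher means in selenium livers, so the pooled correlation includes the difference between the groups. The members and the chaperone list were chosen with earlier results of these data known, and the adjustment covers only the 6 members tested. The mean log2(TPM + 1) of the 13 chaperone genes was 5.65 to 6.14 in selenium livers and 4.92 to 5.72 in control livers. Over the 12 livers it correlated with Selenos at Pearson's r = 0.731 (permutation p = 0.00539, adjusted over the 6 members tested 0.0323) and Spearman's rho = 0.776 (permutation p = 0.0044, adjusted 0.0264), two-sided. For the other 5 members r ran from −0.328 for Selenof to 0.369 for Selenoi, with adjusted p of 0.598 or more. Without controls 1 and 2, the livers farthest from the median chaperone level, r for Selenos was 0.549 (permutation p = 0.101). A p under 0.05 thus depended on those livers. Within groups it was −0.19 among the 6 selenium livers and 0.71 among the 6 control livers, so it did not hold within the selenium group.

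**Figure D4:**
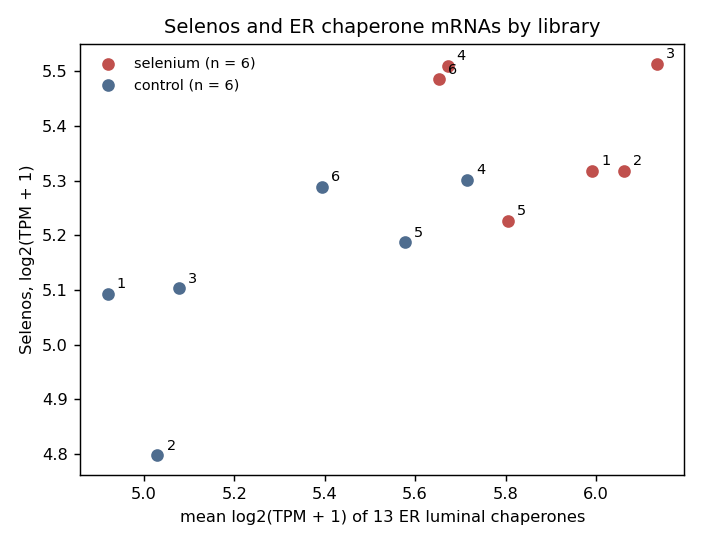
Selenos level (vertical axis, log2(TPM + 1)) against the mean level of 13 ER luminal chaperone genes (horizontal axis, log2(TPM + 1)) in 6 selenium and 6 control livers, each point 1 library. Controls 1, 2 and 3 are low on both axes, and among the selenium livers Selenos does not follow the chaperones (r = −0.19).

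The Selenos promoter is printed because its level and that of the chaperones varied together over all livers, and ER chaperone promoters are known for the ER stress response element, whose binding factors include XBP1 and ATF6. The sequence is the 250 bases before the annotated start in RefSeq, build GRCm38.p6, chr7:66079399-66079648 on the plus strand, with CCACG in capitals.

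Selenos promoter: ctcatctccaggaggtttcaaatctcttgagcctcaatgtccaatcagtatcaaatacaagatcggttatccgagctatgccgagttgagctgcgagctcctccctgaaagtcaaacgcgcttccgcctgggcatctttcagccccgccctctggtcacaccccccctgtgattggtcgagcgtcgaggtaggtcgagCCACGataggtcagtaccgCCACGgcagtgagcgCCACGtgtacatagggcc

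All 7 members had a promoter in that table. Searched on both strands, the Selenos promoter held CCACG, a piece of the element, 3 times, all within the stretch nearest the start. Of 27025 promoters of this length, 28.2% held CCACG at least 1 time and 2.18% at least 3 times, while Selenok and Selenof held it 1 time each and the other members not at all. The whole element (CCAAT, 9 bases, CCACG) was in 0.122% of promoters and its variant (ATTGG, 1 base, CCACG) in 0.0333%, and neither was in any member's window. CCAAT alone was in 34.5% of promoters, with 2 copies each in Selenos and Selenof and 1 in Selenoi. These matches describe letters in a window and not binding.

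Uggt1, the partner of Selenof, averaged 7.50 ± 1.29 TPM in selenium livers and 6.08 ± 0.674 TPM in control livers (SD, n = 6 each), a log2 difference of 0.26 with adjusted p = 0.261 by limma. Of 12 genes of glycoprotein quality control, 11 were tested and all 11 differences were positive, with a median of 0.20 beside −0.03 for all tested genes. At an unadjusted p under 0.05, 4 were higher and 0 lower, where all tested genes gave 7.01% higher and 11.4% lower. The glucosidase gene Mogs and the cargo lectin gene Lman2 differed by 0.46 and 0.39 (adjusted p = 0.136 and 0.151). Selenof itself had the opposite sign, at −0.14.

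Zdhhc6, the acyltransferase that works with Selenok, averaged 34.9 ± 3.61 TPM in selenium livers and 31.1 ± 4.71 TPM in control livers (SD, n = 6 each), a difference of 0.17 with adjusted p = 0.481 by limma. Of the 6 genes of this S-acylation list, 4 differences were positive and 2 negative, with a median of 0.12. None was found (0) at an unadjusted p under 0.05, beside 18.5% of all tested genes. Lypla1, a depalmitoylating thioesterase, differed by −0.18 and Zdhhc7 by 0.20.

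Atp2a2, the calcium pump SERCA2 that Selenon is known to act on, averaged 33.7 ± 8.36 TPM in selenium livers and 22.7 ± 6.71 TPM in control livers (SD, n = 6 each), a difference of 0.56 with adjusted p = 0.159 by limma. Of 15 calcium genes, 9 were tested, with 7 positive and 2 negative differences and a median of 0.21. Atp2a2 was the only 1 of them at an unadjusted p under 0.05, beside 18.5% of all tested genes. The store sensors Stim1 and Stim2 differed by 0.35 and −0.20 (adjusted p = 0.305 and 0.408).

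Around Selenoi, the phospholipid synthesis list, which holds Kennedy pathway genes and also Pisd and Pemt from outside it, was mixed. It had 4 positive and 8 negative differences among 12 tested of 14 listed genes and a median of −0.14. At an unadjusted p under 0.05, 3 were higher and 1 was lower, where all tested genes gave 7.01% higher and 11.4% lower. Pisd and Etnk1, enzymes of phosphatidylethanolamine synthesis, differed by 0.48 and 0.45 (adjusted p = 0.144 and 0.197 by limma), and Chkb, a choline and ethanolamine kinase, by −0.34 (adjusted p = 0.148). Pcyt2, which supplies the substrate of Selenoi, averaged 92.0 ± 9.76 TPM in selenium livers and 107.6 ± 11.3 TPM in control livers (SD, n = 6 each), a difference of −0.22 with adjusted p = 0.295. Cept1, which makes the same lipid by a parallel step, differed by −0.10 (adjusted p = 0.747). Among the 8 libraries with low Dbp the median of the list was 0.04, and that of all genes there is not given here.

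**Figure D5:**
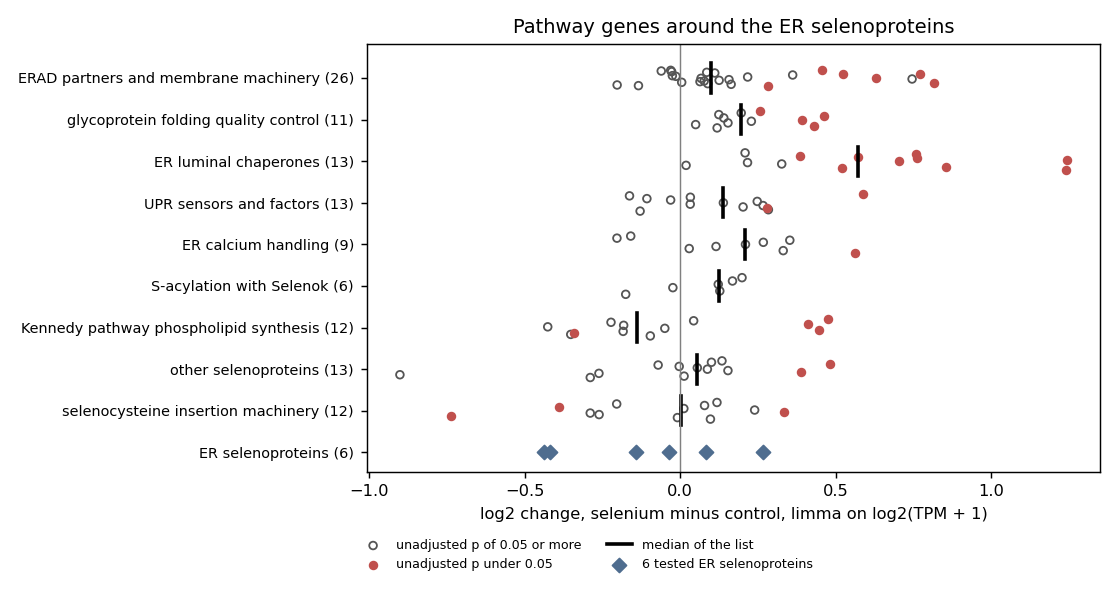
Log2 difference, selenium minus control, of each tested gene in 9 lists of pathway genes and of the 6 tested ER selenoproteins (horizontal axis), with the number of tested genes in parentheses. Circles are genes, filled at an unadjusted p under 0.05, black bars are list medians and diamonds are the members. The chaperone list has the highest median, 0.57, and the members lie between −0.44 and 0.27.

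Selenoproteins outside the list of members and the machinery that inserts selenocysteine had differences in both directions. Of 17 other selenoproteins 13 were tested, with 8 positive and 5 negative differences and a median of 0.05. At an unadjusted p under 0.05, where all tested genes gave 7.01% higher and 11.4% lower, 0 were lower and 2 were higher. These were Msrb1, a methionine sulfoxide reductase, and Txnrd1, the cytosolic thioredoxin reductase, with differences of 0.39 and 0.48 (adjusted p = 0.163 and 0.168 by limma). Gpx3, the plasma glutathione peroxidase, differed by −0.90 (adjusted p = 0.309) with 2.47 ± 2.09 TPM in selenium livers and 7.16 ± 9.28 TPM in control livers (SD, n = 6 each). Of the 12 genes of the insertion machinery, 6 differences were positive and 6 negative, with a median of 0.00. Among them 1 was higher and 2 were lower at an unadjusted p under 0.05, beside the same shares of all tested genes. Rescaling without mitochondrial genes turned the medians of these lists to −0.04 and −0.08, beside −0.11 for all genes. In the 8 low-Dbp libraries they were 0.17 and 0.15, and the median of all genes there is not given here. Of all tested genes, 34 were called higher and 13 lower in those libraries, against 2 and 31 over all 12.

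Within the insertion machinery, the factors nearest to decoding differed little. Secisbp2, the protein that binds the stem-loop, averaged 2.99 ± 0.265 TPM in selenium livers and 2.98 ± 0.557 TPM in control livers (SD, n = 6 each), and the elongation factor Eefsec differed by 0.10 (adjusted p = 0.750 by limma). Ncl, nucleolin, which is also known to bind the stem-loop, averaged 25.2 ± 4.48 TPM in selenium livers and 43.4 ± 12.2 TPM in control livers. All 6 selenium livers were below every control for Ncl (log2 difference −0.74, adjusted p = 0.0671) and for Secisbp2l, a relative of Secisbp2 (−0.39, adjusted p = 0.125). Of all tested genes, 1.63% had groups that did not overlap, in either direction. The seryl-tRNA synthetase gene Sars, whose product charges the tRNA before its serine is turned into selenocysteine, differed by 0.33 (adjusted p = 0.244).

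Over the 9 lists, 115 of 128 genes were tested, and 0 passed the adjusted threshold by limma, with 28 higher and 3 lower at an unadjusted p under 0.05, beside 7.01% and 11.4% of all tested genes. After rescaling without mitochondrial genes 2 passed, Derl3 and Ncl, beside 190 of all 9965 genes tested there. Among the 8 libraries with low Dbp 1 passed, Derl3, beside 47 of all 9980 tested genes.

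The members did not vary as 1 block from liver to liver. With each group's mean removed, pairwise r over the 12 livers ran from −0.565 for Selenom with Selenot to 0.539 for Selenok with Selenof, and Selenok and Selenot ran against each other at −0.528. These values and those that follow are descriptions over libraries that share their length balance. Selenos was most like Tm9sf2 (r = 0.925), Nucks1 (0.902) and Tomm20 (0.901), and Selenok most like Ttc32 (0.969), Rps18-ps5 (0.963) and Serf2 (0.961). Selenof was most like Cd47 (0.957), Nqo1 (0.937) and Pigk (0.930), and Selenom was like Crtap (0.893) and Pxdc1 (0.885). Selenot was most like Kpna3 (0.976), Gpbp1 (0.969) and Oip5os1 (0.969), and Selenoi most like Spcs3 (0.915), Slc4a7 (0.902) and Kpnb1 (0.895). The genes named are among the 3 highest of all tested genes with a proper symbol for each member.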

How the data were processed

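RNA from 12 frozen mouse livers, 6 selenium and 6 control, was isolated with TRIzol and an RNeasy kit and made into Illumina libraries, per the labels' protocols. HISAT2 2.1.0, RSEM 1.2.8, DESeq2 and the GRCm39 build are named per the submitters' processing notes, without their roles. Selection of polyadenylated RNA, removal of rRNA and use of strand are not stated in what was used here. The authors deposited TPM per gene and library, which hold no depth or counting error, and the single-library tables equalled the series table in 100% of values. The log2 fold changes and the p-values, raw and adjusted, of the authors' deposited table run as control over selenium, and the sign of the fold changes was turned here.

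Genes with at least 1 TPM in 6 or more of 12 libraries were tested on log2(TPM + 1) with limma 3.58.1 in R 4.3.3 (two-sided, empirical Bayes, intensity trend, Benjamini-Hochberg, threshold 0.05, no covariates). The pseudocount of 1 understates changes of low genes. Nothing says that libraries share animals or batches, and each is labelled as a separate liver sample. Members and lists were chosen with earlier results of these data known. Genes named in the text are the 7 members, the 3 genes with the smallest p of each of 9 pathway lists, 12 textbook partners and the 3 genes most like each tested member, of which 1 is not reported here. Col1a1, Col3a1 and Spp1 were named after their values were seen. Permutation tests of correlations used 100000 resamples (scipy 1.17.1). The method was checked on simulated data. Sequences come from GENCODE M21 and RefSeq, on a build other than that of the files, so gene positions in the files' build are not given. Alternatives covered pseudocounts, filters, scalings, test variants, clock covariates, the 8 libraries with Dbp under 10 TPM, leaving out each library, a replicate block and, added after seeing the data, corrections for transcript length and GC content.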

Additional observations from a re-analysis of the deposited data

Results flagged for a closer look

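The TPM of 14 sets of 6 livers (7 members in 2 groups) were examined for a single library far from the rest, and 2 were flagged, where chance flags about 1 in 20. For Selenom, control liver 5 was at 5.1 TPM and the next highest control at 3.08 TPM, a gap of 0.654 of the range of the control group. For Selenon, selenium liver 3 was at 0.93 TPM and the next highest selenium liver at 0.49 TPM, a gap of 0.733 of the range of the selenium group. These livers also had the highest Col1a1 and Col3a1 of their groups. The summed stellate cell and fibroblast markers were 72.9 TPM in selenium liver 3, the highest of its group, and 57.2 TPM in control 5, below the 66.1 TPM of control 4, and their part was not tested.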

How the results depend on the processing

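None of the tested members was called under any of 29 alternatives, and each of Selenos, Selenok, Selenom and Selenof kept its sign in all that gave it a value. Selenos ran from 0.10 to 0.38, with adjusted p from 0.0621 to 0.778. Its unadjusted p was under 0.05 in 21 of 29, including 6 of 12 that left out a library. Selenom ran from −0.77 to −0.09 in 28 and was dropped by the 5 TPM filter. Selenot, −0.04 as reported, turned to 0.076 with array weights, 0.078 with the first 2 clock components and 0.16 with the GC correction, and ran from −0.12 to 0.10 when each library was left out. Selenoi turned to −0.00014 without mitochondrial genes and −0.0053 with 2 clock components.

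The count of genes called was 33 as reported, and 1 without a filter, 12 with quantile normalization, 190 without mitochondrial genes, 56 with robust empirical Bayes, 255 with array weights, 21 with 1 clock component, 3 with 2 clock components, 54 with the length correction, 50 with the GC correction and 0 with the exact permutation test per gene. When each library was left out it was 7 (without control 2) to 171 (without control 6). The cause was not tested. With a replicate block 3 genes and 0 members were called. With each gene's group mean removed, same-numbered livers correlated at −0.136 to 0.107 over 6 pairs. Of the selenium livers, 0 correlated best with the control of their own number. These values showed no pairing by number, and they cannot exclude one. Pathway genes called were 0 as reported, 2 without mitochondrial genes and 1 with the 8 low-Dbp libraries, beside 33, 190 and 47 of all tested genes. The number of members related to the chaperone level was 1 as reported, and 0 without the outermost libraries and 0 with the length correction (r = 0.722 and adjusted p = 0.0542 for Selenos, beside r = 0.731 as reported). It stayed at 1, for Selenos, with a pseudocount of 0.1 (r = 0.73, adjusted permutation p = 0.031) and with median-of-ratios scaling (r = 0.806, adjusted permutation p = 0.00594). The unknown depth gives no counting error, and it limits Selenon and Selenom most.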

Other observations

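The ratio of Selenof to Selenom, both luminal thioredoxin-like proteins, was 43.0 at the lowest, 56.3 at the median and 121 at the highest in selenium livers, against 27.5, 46.3 and 56.4 in control livers. The ratio of Selenot to Selenok was 0.297, 0.646 and 1.05 in selenium livers, against 0.228, 0.475 and 0.744 in control livers. Both sets overlap between the groups, and no test was run on them. A Selenot pseudogene is listed at 0 in all libraries, and a snoRNA gene, Gm24406, lies opposite Selenof and has no value in the table. Skeletal muscle markers stood out in selenium liver 4 alone, with 58.5 TPM of Acta1, 30.8 TPM of Ckm and 48.2 TPM of Tnnt3.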
